A study of Mus musculus with 24 samples.

Results

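The 44 genes described here encode the machinery of DNA replication and cell division: helicase and licensing factors, enzymes of nucleotide supply, cyclins and their kinases, mitotic regulators, spindle and kinetochore proteins, and chromatin proteins of cycling cells. They were taken by name from the 25135 genes listed per age, and all 44 are listed at both ages. Expression was measured by RNA sequencing of GFP-tagged nuclei sorted from mouse cortex, in 6 WT and 6 Kdm6b-cKO libraries at postnatal day 1 (P1) and 6 of each at P30, 24 libraries in all. WT mice were Kdm6b wt/wt littermates. Kdm6b-cKO mice carried Emx1-Cre and 2 floxed Kdm6b alleles (Kdm6b f/f). Mice of each genotype carried the SUN1-GFP reporter on a C57BL/6 background. The authors used this reporter to sort nuclei of the Emx1 lineage in each genotype. The genotype they give for WT does not name Cre. The Emx1 promoter switches Cre on in progenitors of the embryonic dorsal forebrain, so that the excitatory neurons and macroglia descending from them carry the deletion, whereas interneurons and microglia do not. Each value is in FPKM, fragments scaled to transcript length and library size, so levels can be compared between genes. The tables of the ages were normalized separately, and levels are therefore only set side by side across ages.

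A dividing cell first licenses its replication origins by loading the MCM helicase, then copies its DNA in S phase, and finally condenses and separates its chromosomes in mitosis. D-type and E-type cyclins drive entry into S phase, and A-type and B-type cyclins with CDK1 drive mitosis. The transcripts of these genes rise and fall with the cycle, so that they are abundant in progenitor pools and scarce in neurons that have left the cycle. In the newborn cortex the cells still cycling are mainly glial progenitors and the last neuronal progenitors, and in the young adult cortex mainly oligodendrocyte precursors. In bulk nuclei, fewer cells of a type and less RNA per cell cannot be told apart.

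Promoters of these genes are known for a few short elements: CCAAT boxes bound by NF-Y, the cell cycle genes homology region TTTGAA of genes used in G2 and mitosis, and E2F sites of genes used at the start of S phase. RefSeq promoter windows (GRCm38.p6, 250 bases before to 50 bases after the annotated start) were available for 35 of the 44 members. On either strand, CCAAT was found in 28 of these 35 windows, against 37.9% of the 27025 windows of all genes, and TTTGAA in 17 of 35, against 18.1% of all windows. An E2F core, meaning TTCCCGC or its variant TTCGCGC, or TTGCCGC or its variant TTGGCGC, was found in 12 of 35, against 9.69% of all windows. The elements were spread unevenly over the roles. TTTGAA was in 16 of 21 windows of mitotic, spindle and chromatin genes and in 1 of 14 windows of licensing, nucleotide and G1/S genes. An E2F core was in 3 of 21 and in 9 of 14 windows of these groups. A match is a match of letters and not a measured binding site. The 250 bases upstream of the start are shown for 5 members, in the direction of transcription and with matches to these letters in capitals. They are the 3 members whose WT and Kdm6b-cKO libraries did not overlap at P1 (Top2a at chr11:99024190-99024439, Cenpf at chr1:189688087-189688336 and Ccne1 at chr7:38107491-38107740), the mitotic kinase gene Cdk1 (chr10:69352913-69353162), and Ccnb2 (chr9:70421555-70421804), the member with the smallest p at P30. All lie on the minus strand.
Top2a: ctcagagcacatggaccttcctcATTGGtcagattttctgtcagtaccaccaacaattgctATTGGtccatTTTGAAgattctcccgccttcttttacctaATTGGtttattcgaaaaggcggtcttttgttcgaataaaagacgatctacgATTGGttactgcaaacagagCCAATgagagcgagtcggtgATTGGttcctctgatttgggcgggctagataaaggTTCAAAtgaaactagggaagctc
Cenpf: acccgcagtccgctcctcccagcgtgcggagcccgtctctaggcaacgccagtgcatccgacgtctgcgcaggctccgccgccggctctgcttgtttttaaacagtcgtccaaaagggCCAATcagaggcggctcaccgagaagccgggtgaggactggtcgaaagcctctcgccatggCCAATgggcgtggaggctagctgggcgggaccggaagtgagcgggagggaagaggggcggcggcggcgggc
Ccne1: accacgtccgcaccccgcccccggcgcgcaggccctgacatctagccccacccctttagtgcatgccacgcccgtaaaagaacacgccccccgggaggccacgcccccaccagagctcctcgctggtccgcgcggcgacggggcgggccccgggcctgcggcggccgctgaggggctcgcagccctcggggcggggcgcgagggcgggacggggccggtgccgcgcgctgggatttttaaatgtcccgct
Cdk1: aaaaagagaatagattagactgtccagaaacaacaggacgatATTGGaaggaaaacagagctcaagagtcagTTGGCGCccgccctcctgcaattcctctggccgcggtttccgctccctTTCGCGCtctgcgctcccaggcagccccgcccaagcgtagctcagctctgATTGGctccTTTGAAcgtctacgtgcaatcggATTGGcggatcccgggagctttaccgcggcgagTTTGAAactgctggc
Ccnb2: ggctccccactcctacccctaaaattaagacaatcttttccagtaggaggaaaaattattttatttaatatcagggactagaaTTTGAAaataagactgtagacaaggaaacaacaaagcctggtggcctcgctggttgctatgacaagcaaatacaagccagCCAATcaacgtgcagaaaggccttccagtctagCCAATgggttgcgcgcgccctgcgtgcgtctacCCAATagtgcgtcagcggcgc
The Top2a window held 6 CCAAT boxes and 2 TTTGAA elements, and that of Cdk1 held 3 CCAAT boxes, 2 TTTGAA elements and 2 E2F cores. The Cenpf window held 2 CCAAT boxes and that of Ccnb2 held 3. Each of these also held a TTTGAA after the start, beyond the bases shown, whereas the Ccne1 window held none of these letters.

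Depth differed between libraries. Read from the FPKM that 1 read is worth, and after the authors' scaling, it ranged from 807000 to 3890000 effective reads in WT and from 190000 to 2840000 in Kdm6b-cKO at P1. At P30 it ranged from 5120000 to 8310000 in WT and from 1940000 to 8040000 in Kdm6b-cKO. Of the libraries, numbered 0 to 5 per group, Kdm6b-cKO 0 and 5 at P1 are the shallowest (343000 and 190000). There 1 read of a transcript of 2 kb is worth 1.62 and 2.92 FPKM. Among the 1128 olfactory receptor genes listed, 397 to 794 were above 0 in WT libraries 2 to 5 and Kdm6b-cKO library 5 at P1, against 2 to 22 in the other 7 libraries of that age, and this split was used as a batch. The 45S ribosomal RNA gene was at 3423 and 3239 FPKM in Kdm6b-cKO libraries 0 and 1 and at 899 FPKM or less in the others of P1. Kdm6b itself was at 24.9 to 51.0 FPKM in WT and 15.0 to 38.4 FPKM in Kdm6b-cKO at P1 (log2 fold change -0.41, adjusted p = 0.534 by limma). At P30 it was at 16.9 to 26.4 and 17.5 to 28.1 FPKM (0.12, adjusted p = 0.828). A value over the whole gene can also count exons outside a deletion. The floxed exons are not given in the sources used here and reads by exon were not examined, so these values do not check the labels. No source states that the libraries of a group came from separate animals, so the p-values measure the spread between libraries, which may be technical.

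At P1, cell cycle genes were on balance higher in Kdm6b-cKO nuclei, but no single member was called, which took both an adjusted p under 0.05 and a difference above 2-fold. All 44 members reached the mean of 1 FPKM needed for a test. Their log2 fold changes were above 0 in 33 of 44 and had a median of 0.40, whereas the median over all 16250 genes tested was -0.25. The median of all genes depended on the filter. With a mean of at least 5 FPKM it was -0.05 over 9725 genes, and that of the 28 members left was 0.40. At an unadjusted p under 0.05, 10 of 44 members were higher and 0 lower in Kdm6b-cKO, against 6.70% of all genes higher and 7.77% lower. None of the 44 was called, and 0% of all genes were called either, with a smallest adjusted p of 0.160 over all genes and 0.180 among the members (limma, Benjamini-Hochberg adjustment over all genes). The 10 were Top2a, Ccne1, Cenpa, Hmgb2, Cenpf, Birc5, Mki67, Pcna, Cdk1 and Mcm3. In 3 of 44 members all 6 Kdm6b-cKO libraries were above all 6 WT libraries, and in 0 of 44 below, against 0.603% and 0.683% of all genes.

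**Figure D1:**
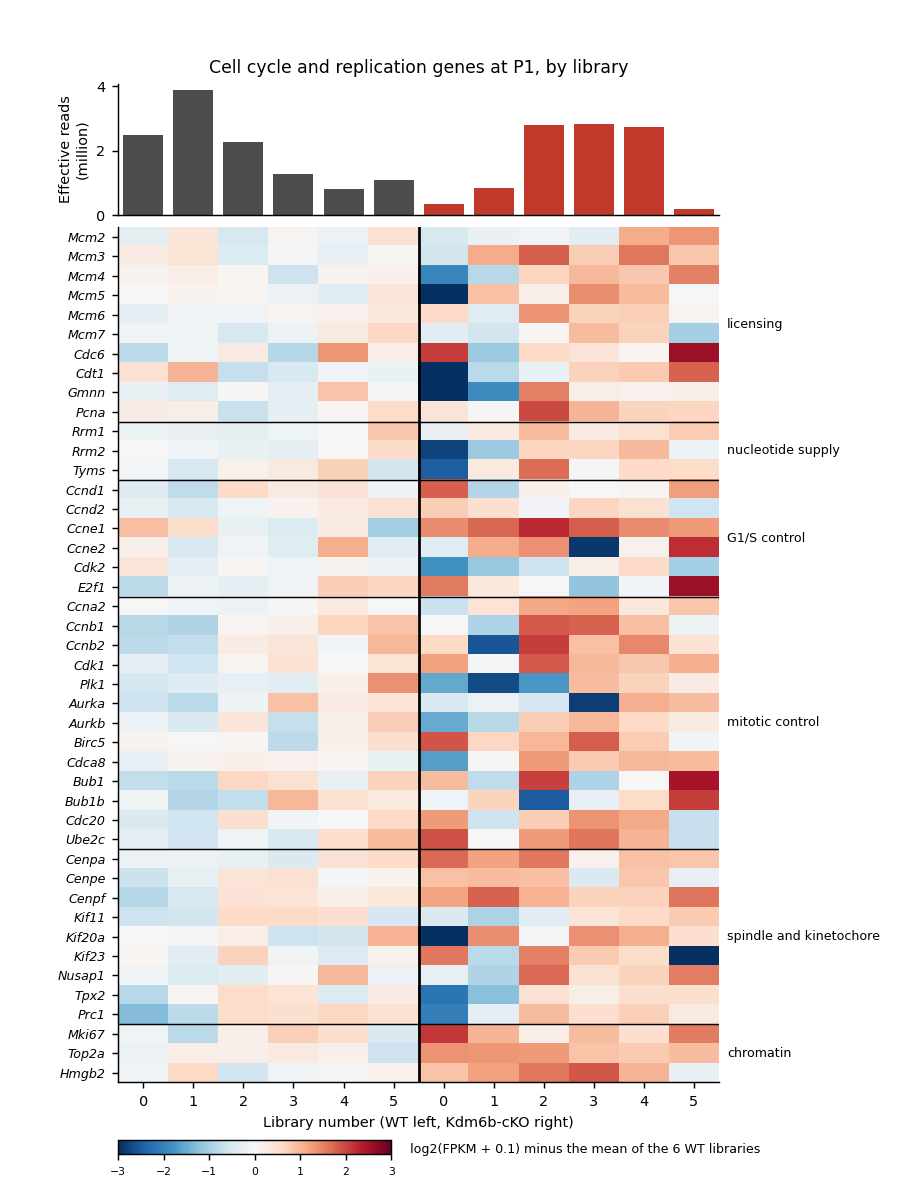
Heat map of the 44 members (rows, by role) in the 12 libraries at P1 (columns), as log2(FPKM + 0.1) minus the mean of the 6 WT libraries, with bars above for the effective reads of each library. The chromatin genes and Ccne1 are red across most Kdm6b-cKO libraries, and the darkest blue cells lie mainly in Kdm6b-cKO library 0, which held 343000 effective reads.

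Of the roles, only that of chromatin genes of cycling cells had all its genes (3 of 3) higher at an unadjusted p under 0.05 by limma. This did not hold in each batch, as given below for Hmgb2. Top2a (chr11:98854257-98885503 in mm9), which encodes the topoisomerase that untangles DNA before mitosis, was at 3.44 FPKM in the lowest WT library, 6.02 in the median and 6.48 in the highest, and at 9.41, 11.8 and 13.9 FPKM in Kdm6b-cKO. Every Kdm6b-cKO library was above every WT library, and the log2 fold change was 1.09 (SE 0.28, n = 6 per group, adjusted p = 0.180 by limma). The exact permutation test gave p = 0.00216, unadjusted and the smallest it can give for 6 against 6.
Mki67 (chr7:142881471-142908062), which encodes the proliferation antigen Ki-67 that coats mitotic chromosomes, was at 2.95, 5.32 and 8.63 FPKM in the lowest, median and highest WT library and at 6.04, 10.5 and 23.2 FPKM in Kdm6b-cKO. The groups overlapped, with Kdm6b-cKO libraries 2 and 4 inside the WT range and the shallow library 0 the highest. The log2 fold change was 1.06 (SE 0.39, adjusted p = 0.236). Hmgb2, a DNA-bending protein of dividing cells, was at 11.3, 16.5 and 25.4 FPKM in WT and at 14.6, 36.7 and 61.3 FPKM in Kdm6b-cKO, with only library 5 inside the WT range (log2 fold change 1.06, SE 0.32, adjusted p = 0.192). The summed level of the 3 chromatin genes was 23.2 to 34.6 FPKM in WT and 40.6 to 81.3 FPKM in Kdm6b-cKO, and these ranges did not overlap.

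Among spindle and kinetochore genes, 2 centromere genes stood above the rest. Cenpf (chr1:191464478-191511965), a large kinetochore and nuclear matrix protein that accumulates in G2, was at 1.46, 3.25 and 3.73 FPKM in WT and at 4.43, 6.02 and 9.58 FPKM in Kdm6b-cKO. All Kdm6b-cKO libraries were above all WT libraries (log2 fold change 1.16, SE 0.38, adjusted p = 0.209 by limma). The unadjusted exact permutation p of 0.00216 only restates this, since any gene whose groups are fully apart gives it. Cenpa, the histone H3 variant that marks centromeres, was at 8.51, 10.2 and 17.4 FPKM in WT and at 12.7, 24.2 and 38.0 FPKM in Kdm6b-cKO, where library 3 alone was inside the WT range (log2 fold change 1.06, SE 0.30, adjusted p = 0.190). The kinesin genes Kif11, whose product separates the spindle poles, and Kif20a and Kif23, whose products act at the spindle midzone, had log2 fold changes of 0.00, -0.12 and -0.13 with SEs of 0.47, 0.91 and 0.87. Kif20a was listed at 0 in Kdm6b-cKO library 0, and Kif23 in library 5. The kinetochore motor gene Cenpe was at 0.47, and the spindle assembly genes Nusap1, Tpx2 and Prc1 were at 0.53, -0.29 and 0.01. Summed over the 9 genes of this role, the level was 26.4 to 47.1 FPKM in WT and 48.8 to 79.4 FPKM in Kdm6b-cKO, also without overlap. Cenpa was the largest part of it (means 12.0 and 25.8 FPKM). The median log2 fold change of the role was 0.01, and 2 of the 9 genes reached an unadjusted p under 0.05. The sums of the other roles overlapped, such as mitotic control (68.0 to 133 and 80.4 to 207 FPKM) and licensing (97.9 to 182 and 113 to 305 FPKM). That of all 44 members also overlapped (367 to 546 and 452 to 802 FPKM). Summed over all genes, a library held 368146 to 503188 FPKM in WT and 457805 to 773613 FPKM in Kdm6b-cKO.

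Genes of mitotic control were higher in 11 of 13 cases, with 2 of 13 at an unadjusted p under 0.05. Cdk1 (chr10:68799383-68815686), the kinase that starts mitosis, was at 1.90, 3.02 and 4.02 FPKM in WT and at 2.88, 6.11 and 10.8 FPKM in Kdm6b-cKO. Only Kdm6b-cKO library 1 lay inside the WT range (log2 fold change 0.98, SE 0.39, adjusted p = 0.274). Few reads lie behind these values, but their number depends on the transcript assumed. With a transcript of 616 bases, among 7 annotated, the estimate was 1 to 3.1 reads per WT library. In Kdm6b-cKO libraries 0, 1 and 5 it was 1, 1 and 0.5 reads. A longer transcript would give more reads, so these counts may be too low. Birc5, which encodes survivin of the chromosomal passenger complex, was at 8.33, 15.3 and 20.7 FPKM in WT and at 13.6, 26.9 and 54.0 FPKM in Kdm6b-cKO (log2 fold change 1.00, SE 0.34, adjusted p = 0.214), and library 5 alone was inside the WT range. Ccnb1 (chr13:101548605-101556525), the cyclin partner of CDK1 in mitosis, was at 2.90, 5.92 and 9.93 FPKM in WT and at 2.84, 7.94 and 19.8 FPKM in Kdm6b-cKO. Its groups overlapped in the 3 shallow Kdm6b-cKO libraries, while libraries 2 to 4 were above every WT library (log2 fold change 0.58, SE 0.51, adjusted p = 0.608). The exceptions by sign were Plk1 and Aurka, mitotic kinase genes with log2 fold changes of -0.68 (SE 0.64) and -0.33 (SE 0.59). The others lay between 0.04 for Aurkb, the kinase of the passenger complex, and 0.85 for Ube2c. Ccna2 was at 0.55, Ccnb2 at 0.48, Cdca8 at 0.40, and the checkpoint and anaphase genes Bub1, Bub1b and Cdc20 were at 0.64, 0.06 and 0.53.

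**Figure D2:**
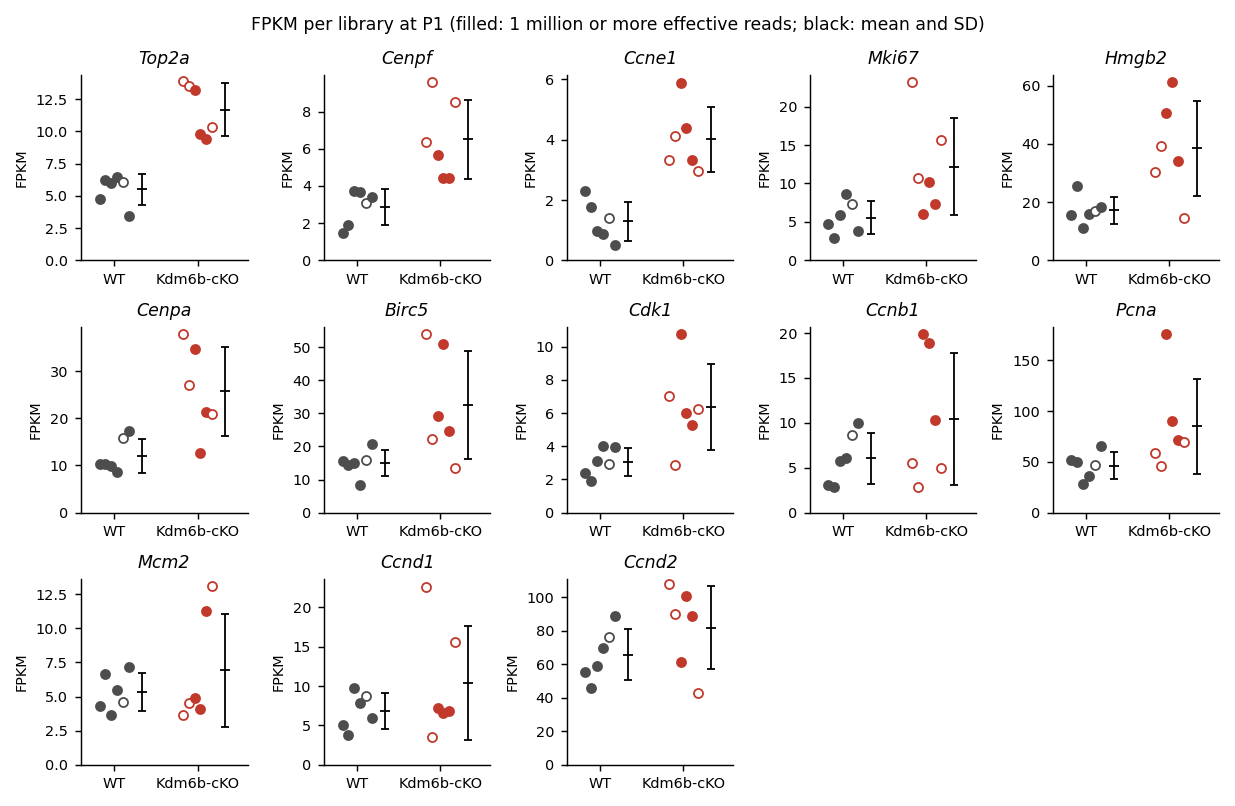
FPKM of 13 members in each P1 library, WT in grey and Kdm6b-cKO in red, with filled points for libraries of at least 1000000 effective reads, open points for shallower ones, and the mean and SD in black. The groups of Top2a, Cenpf and Ccne1 do not overlap, and those of Mcm2, Ccnd1 and Ccnd2 do.

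In the control of S phase entry, 1 of 6 genes reached an unadjusted p under 0.05, and 5 of 6 had a log2 fold change above 0. Ccne1 (chr7:38883003-38892553), the cyclin that activates CDK2 at the G1/S boundary, was at 0.521, 1.19 and 2.30 FPKM in WT and at 2.97, 3.72 and 5.89 FPKM in Kdm6b-cKO. The groups did not overlap, which fixes the unadjusted exact permutation p at 0.00216. Its log2 fold change of 1.65 (SE 0.47, adjusted p = 0.185 by limma) was the highest of the 44. These levels rest on few reads: about 1 to 12.3 reads per WT library and about 1 and 2.1 reads in Kdm6b-cKO libraries 5 and 0, against 16.4 to 29.7 reads in libraries 2 to 4.
The other E-type cyclin gene, Ccne2, was at 1.92 to 5.79 FPKM in WT and 0.271 to 12.7 FPKM in Kdm6b-cKO (log2 fold change 0.26, SE 0.72). The D-type cyclin genes Ccnd1 and Ccnd2, which link growth signals to the cycle, had medians of 6.89 and 64.3 FPKM in WT and 7.06 and 89.3 FPKM in Kdm6b-cKO, with overlapping ranges. Their log2 fold changes were 0.40 (SE 0.43, adjusted p = 0.680) and 0.28 (SE 0.26, adjusted p = 0.629), and that of Ccnd2 was -0.02 after quantile normalization. E2f1, a transcription factor of S phase genes, was at 0.53 (SE 0.60), but at -0.28 in the libraries of at least 1000000 effective reads. Cdk2, the kinase partner of E-type cyclins, was at -0.64 (SE 0.39, adjusted p = 0.457).

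Of the licensing and nucleotide genes, 2 of 10 and 0 of 3 were higher at an unadjusted p under 0.05, and none lower. Pcna (chr2:132074898-132079050), the sliding clamp of DNA polymerases, was at 28.0, 48.4 and 65.3 FPKM in WT and at 45.8, 70.5 and 176 FPKM in Kdm6b-cKO (log2 fold change 0.79, SE 0.31, adjusted p = 0.273). Kdm6b-cKO libraries 0 and 1 lay inside the WT range and library 2 stood far above the rest. Mcm3, a helicase subunit, was at 2.28 to 4.15 FPKM in WT and 2.06 to 10.9 FPKM in Kdm6b-cKO (log2 fold change 0.91, SE 0.42, adjusted p = 0.338), whereas Mcm2 (chr6:88833469-88848774), a subunit of the same complex, was at 3.67 to 7.17 and 3.67 to 13.1 FPKM (0.23, SE 0.39, adjusted p = 0.804). Gmnn, the inhibitor of relicensing, Cdt1, its target, and Mcm5 had negative log2 fold changes of -0.98, -0.58 and -0.37, with SEs of 0.95, 0.96 and 0.93. Each was listed at 0 in 1 Kdm6b-cKO library, although its mean FPKM was above that of WT. Of the other helicase subunits, Mcm4, Mcm6 and Mcm7 were at 0.19, 0.51 and -0.03, and the helicase loader gene Cdc6 was at 0.76 (SE 0.74). The ribonucleotide reductase genes Rrm1 and Rrm2 and the thymidylate synthase gene Tyms had log2 fold changes of 0.41, -0.29 and 0.10 with SEs of 0.30, 0.52 and 0.56.

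Settings that count the shallow libraries less gave more members above the thresholds. In a fit weighted by effective depth, chosen after the data were seen, 4 of 44 members were called higher and 0 lower, against 1.19% of all genes called higher: Ccne1 (log2 fold change 1.59, adjusted p = 0.0459 by limma), Hmgb2 (1.35, adjusted p = 0.0318), Birc5 (1.16, adjusted p = 0.0393) and Ube2c, a ubiquitin-conjugating enzyme of mitotic exit (1.38, adjusted p = 0.0393). Top2a passed the adjusted p in that fit (0.0424) with a log2 fold change of 0.97. With only the 5 WT and 3 Kdm6b-cKO libraries of at least 1000000 effective reads, also chosen after the data were seen, 21 of 44 members were higher at an unadjusted p under 0.05 and 0 were called, against 11.9% of all genes higher at that p. There the median log2 fold change of the members was 0.80 and that of all genes -0.18. Ccnb1 was at 1.64 and Ccne1 at 1.87 on the log2 scale (adjusted p = 0.118 for each by limma). Mki67 was at 0.64, past no threshold (adjusted p = 0.298). The 3 Kdm6b-cKO libraries of this choice (2, 3 and 4) all had few olfactory receptor genes above 0. Of its WT libraries, 0 and 1 shared that batch and 2, 3 and 5 did not. Genotype and batch are thus partly mixed in this subset, and the part of batch was not tested. Weights by effective depth favour the same Kdm6b-cKO libraries. Leaving out 1 library at a time gave 8 to 12 members higher at an unadjusted p under 0.05, against 786 to 1407 of the 16250 genes tested. Without Kdm6b-cKO library 4, 1 member was lower at that p.

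The olfactory receptor batches were also compared separately. Among the libraries with few receptor genes above 0 (WT 0 and 1, Kdm6b-cKO 0 to 4), 34 of 44 members were higher in Kdm6b-cKO, against 37.6% of all genes tested, and the median log2 difference was 0.60, against -0.12 over all genes. Among the others (WT 2 to 5, Kdm6b-cKO 5) it was 31 of 44 members, against 59.1% of all genes, and the median was 0.53, against 0.28. This batch has a single Kdm6b-cKO library of 190000 effective reads. The log2 difference of Top2a was 1.10 in the first batch and 0.94 in the second, that of Cenpf 1.74 and 1.27, and that of Ccne1 1.00 and 1.63. Hmgb2 and Birc5 differed by 1.07 and 1.18 in the first batch and by -0.07 and -0.07 in the second, and Ccnb1 by 1.58 and -0.58. With the batch as a term in the fit, 6 of 44 members were higher at an unadjusted p under 0.05, against 4.10% of all genes. The smallest adjusted p of a member was then 0.340 by limma (Cenpf, log2 fold change 1.57).

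**Figure D3:**
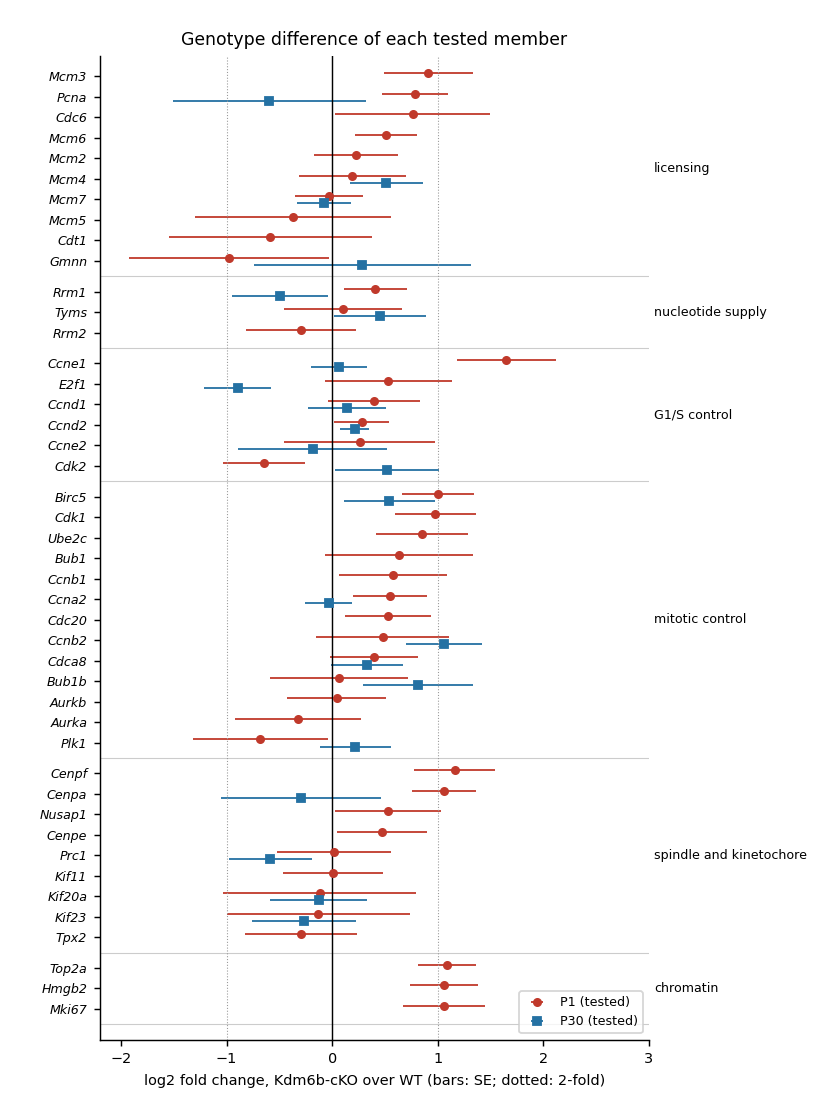
Log2 fold change of Kdm6b-cKO over WT with its SE for each member tested at P1 (red circles, 44 members) and P30 (blue squares, 22 members), grouped by role, with dotted lines at 2-fold. The P1 values of Ccne1, Cenpf, Cenpa and the 3 chromatin genes lie past 1, that of Birc5 lies on it, and of the P30 values only that of Ccnb2 lies past it.

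Genes of the same processes outside the 44 members are set beside all genes at P1, of which 36.8% had a log2 fold change above 0, with 6.70% higher and 7.77% lower at an unadjusted p under 0.05. Of 40 other replication genes tested, 27 had a log2 fold change above 0, with 8 higher and 1 lower at an unadjusted p under 0.05. The smallest p belonged to Rfc4, a clamp loader subunit (13.3 ± 4.91 FPKM in WT and 31.9 ± 16.5 in Kdm6b-cKO, SD, n = 6; adjusted p = 0.180 by limma), and Ezh2, the methyltransferase of H3K27 (22.6 ± 2.33 and 51.9 ± 24.2 FPKM; adjusted p = 0.185), whose groups did not overlap. Of 50 other mitotic genes, 24 were above 0 and 26 below, with 5 higher and 0 lower at that p. They were led by Cks1b, a CDK subunit (log2 fold change 1.06, adjusted p = 0.215), and Smc2, a condensin subunit (0.78, adjusted p = 0.219). Of 15 genes listed as CDK inhibitors and pocket proteins, which included Wee1, Pkmyt1, E2f4 and E2f5, 6 were above 0 and none reached that p. The smallest belonged to Cdkn2c (1.06, adjusted p = 0.395) and to Cdkn2d (-0.77, adjusted p = 0.433). Of 7 other genes of cyclins, CDKs and E2F factors (E2f2, E2f3 and E2f7 among them), 1 was above 0. Ccnf, a cyclin-like F-box protein gene, was at an unadjusted p under 0.05 (-2.80, adjusted p = 0.217), followed by Ccnd3 (-1.90, adjusted p = 0.431). No gene of these 4 lists was called.

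Markers of cell types also varied between the genotypes at P1, and their part in the result was not tested. Of 12 radial glia markers, 3 were higher and 1 lower at an unadjusted p under 0.05, led by Nes and Vim, intermediate filament genes of neural progenitors (log2 fold changes 0.93 and 0.79), and their summed level was 1097 to 1999 FPKM in WT and 1688 to 4074 FPKM in Kdm6b-cKO. Of 8 intermediate progenitor markers, 2 were higher and 1 lower (165 to 358 and 152 to 609 FPKM), led by Insm1 (1.24) and Btg2 (-1.86). Of 7 oligodendrocyte precursor markers tested, 0 were higher and 3 lower (34.0 to 57.9 and 22.5 to 36.5 FPKM), led by Sox10 (-1.41) and Gpr17 (-2.84).
Of 8 astrocyte markers 3 were lower (114 to 185 and 72.0 to 274 FPKM), led by Gfap and Gja1. Of 9 glutamatergic neuron markers 3 were lower (462 to 729 and 583 to 1012 FPKM), led by Slc17a7. GABAergic markers (120 to 187 and 110 to 175 FPKM) had 1 of 10 higher and 1 lower, and microglial markers (79.8 to 180 and 26.6 to 168 FPKM) 1 of 9 higher and 2 lower. Endothelial and mural markers (114 to 226 and 72.1 to 208 FPKM) had 0 of 9 in either direction, and erythroid markers (565 to 1168 and 864 to 2018 FPKM) 1 of 5 higher and 1 lower. None of these markers was at 0 in all 12 libraries. The nuclear transcript Malat1 was at 2934 to 7366 FPKM in WT and at 8009 to 27202 FPKM in Kdm6b-cKO without overlap. Its part in the result was not tested either.

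At P30 several mitotic members were listed at or near 0, while others kept levels of a few FPKM. Side by side with P1, 41 of 44 members had a lower mean in WT libraries. That count takes Cdk1, Ccnb1 and Bub1 at their WT entries of 0. A WT mean of at least 1 FPKM was reached by 22 of 44 members, compared with 43 of 44 at P1. Mki67 was at 0.300 ± 0.135 FPKM in WT at P30 (SD, n = 6) and at 5.57 ± 2.15 FPKM at P1, and Top2a was listed at 0 in 4 of 6 WT libraries and reached 0.231 FPKM in the highest. Cdk1 and Ccnb1 were listed at 0 in all 12 P30 libraries. An entry of 0 can be a failed estimate in this table, since Malat1 and Meg3, with means of 11489 and 1264 FPKM at P1, were also listed at 0 in all 12, so no level is given for this kinase and this cyclin. The 3 members with a higher WT mean at P30 than at P1 were Ccne1 (5.50 ± 1.48 against 1.30 ± 0.648 FPKM), E2f1 (3.51 ± 1.11 against 2.48 ± 1.05 FPKM) and Bub1b, a gene of the spindle checkpoint (4.07 ± 3.65 against 3.09 ± 1.58 FPKM). Ccnd2 was the most abundant member at each age, at 65.9 ± 15.4 FPKM at P1 and 20.5 ± 1.97 FPKM at P30.

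**Figure D4:**
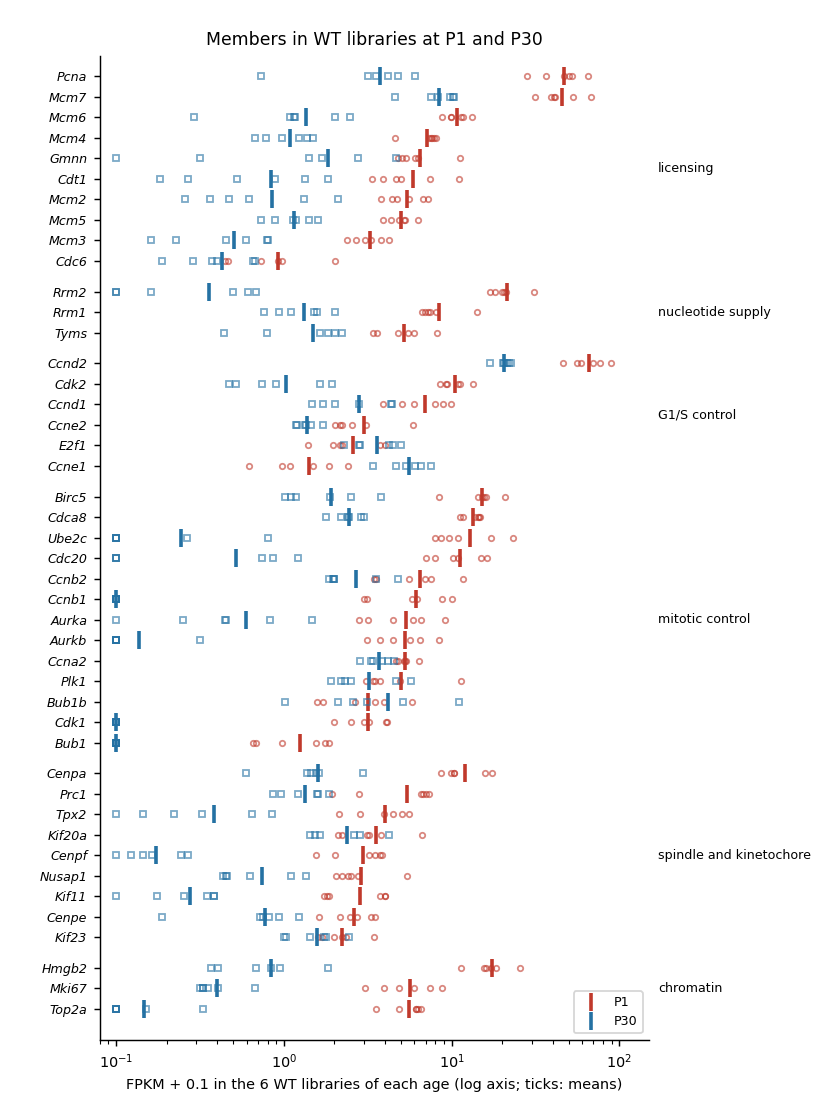
Levels of the 44 members in the 6 WT libraries at P1 (red) and P30 (blue), as FPKM + 0.1 on a log axis, with open points for libraries and ticks for means, grouped by role. The ages come from separately normalized tables, and in 41 of 44 members the P30 mean is the lower one, with Ccne1, E2f1 and Bub1b as exceptions. Cdk1, Ccnb1 and Bub1 are counted at their P30 entries of 0, which can be failed estimates.

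At P30 the members showed no common direction between the genotypes. Of the 22 members tested, 12 had a log2 fold change above 0, with a median of 0.10, against -0.05 over the 13289 genes tested. None was called, against 0.278% of all genes (37 genes, but 2 without WT library 2, 3 or 5 and 550 with the 45S batch as a term). Of the members, 1 was higher and 1 lower at an unadjusted p under 0.05, against 5.34% and 7.37% of all genes. The libraries of 0 of 44 members were apart in either direction, against 0.888% of all genes higher and 1.05% lower. The 22 members tested passed a filter on the mean over both genotypes and are not all members.

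The member with the smallest p was Ccnb2, a B-type cyclin gene. It was at 1.75, 1.89 and 4.71 FPKM in the lowest, median and highest WT library and at 3.47, 4.56 and 13.2 FPKM in Kdm6b-cKO. WT library 2, the highest of WT, reached into the Kdm6b-cKO range, and the log2 fold change was 1.06 (SE 0.36, adjusted p = 0.244 by limma). Its closest relative in function, Ccnb1, was listed at 0 in all these libraries, as given above. At P1, Ccnb2 was at 3.32, 6.15 and 11.7 FPKM in WT and at 0.900, 9.78 and 24.8 FPKM in Kdm6b-cKO (log2 fold change 0.48, SE 0.63, adjusted p = 0.733).
E2f1 (chr2:154385143-154395628) was lower in Kdm6b-cKO, at 2.19, 3.43 and 4.92 FPKM in WT and 0.826, 1.91 and 2.81 FPKM in Kdm6b-cKO. The groups overlapped in Kdm6b-cKO libraries 2 and 5, and the log2 fold change was -0.89 (SE 0.32, adjusted p = 0.259). With only the 6 WT and 3 Kdm6b-cKO libraries of at least 5000000 effective reads, chosen after the data were seen, it was -0.69 (SE 0.32, adjusted p = 0.196), and that of Ccnb2 was 0.94 (SE 0.35, adjusted p = 0.128). The 45S ribosomal RNA gene was above 1000 FPKM in 5 WT and 3 Kdm6b-cKO libraries at P30 and below it in the others. Within the first of these batches the log2 difference was 1.11 for Ccnb2 and -1.16 for E2f1, and within the second, with 1 WT library, it was 1.26 and -0.38. The 3 Kdm6b-cKO libraries of at least 5000000 effective reads (0, 1 and 5) were also the 3 of the second batch. Depth and 45S batch therefore cannot be told apart within Kdm6b-cKO.

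The other members with the smallest p at P30 overlapped widely between genotypes. Bub1b was at 0.912, 2.75 and 11.0 FPKM in WT and 2.43, 5.06 and 13.4 FPKM in Kdm6b-cKO (log2 fold change 0.81, SE 0.52, adjusted p = 0.557), with 1 high library in each group. The D-type cyclin gene Ccnd2 was at 16.9, 20.8 and 22.4 FPKM in WT and 19.9, 23.5 and 31.2 FPKM in Kdm6b-cKO (0.21, SE 0.14, adjusted p = 0.564). Prc1, a microtubule bundler of the spindle midzone, was at 0.766 to 1.75 and 0.418 to 1.29 FPKM (-0.59, SE 0.39, adjusted p = 0.572), but its sign differed between the 45S batches (-1.09 and 0.26). The helicase subunit gene Mcm4 was at 0.575 to 1.40 and 0.911 to 1.93 FPKM (0.51, SE 0.35, adjusted p = 0.577). None of these passed the adjusted test. Ccne1, the gene with the highest fold at P1, was at 3.31, 5.59 and 7.47 FPKM in WT and 3.89, 5.28 and 10.1 FPKM in Kdm6b-cKO at P30 (0.06, SE 0.27, adjusted p = 0.946). Ccnd1 and Pcna had log2 fold changes of 0.14 (SE 0.37) and -0.60 (SE 0.92). The signs of Ccne1, Ccnd1 and Pcna at P30 turned with weights by effective depth and with a library left out.

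**Figure D5:**
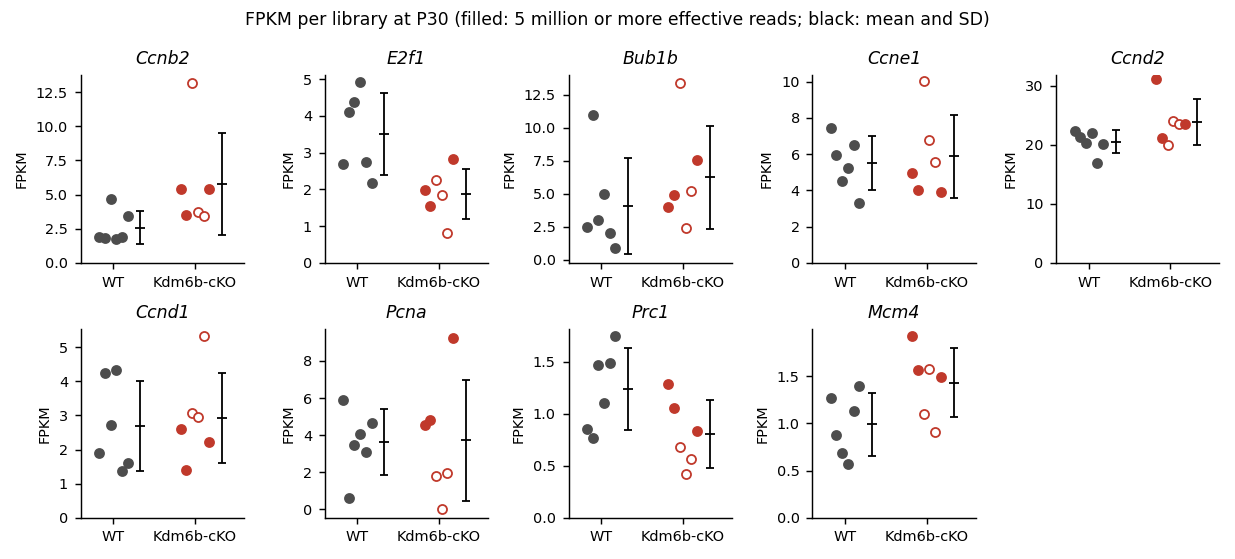
FPKM of 9 members in each P30 library, WT in grey and Kdm6b-cKO in red, with filled points for libraries of at least 5000000 effective reads, open points for shallower ones, and the mean and SD in black. The groups of all 9 members overlap.

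Between the ages, the genotype effect of the 22 members above the filter at each age was compared in a fit over 24 libraries, and none passed an adjusted p under 0.05. At an unadjusted p under 0.05 there were 2 of 22, against 13.2% of the 12644 genes tested. The effect on Ccne1 was lower at P30 than at P1 by 1.59 on the log2 scale (difference -1.59, SE 0.46, adjusted p = 0.164 by limma). With limma array weights the difference was -1.81 (adjusted p = 0.0338). Under these weights Ccne1 was the 1 of 22 members called, against 204 genes called lower and 279 higher of the 12644 tested. In the main fit 0 genes were called lower and 1 higher. The effect on E2f1 differed by -1.42 (SE 0.68, adjusted p = 0.372). Members such as Top2a, Mki67 and Cenpf, whose P30 levels were below the filter, were not in this fit. With no filter on low values, 42 members were tested and 0 were called. At an unadjusted p under 0.05 by limma, 4 of the 42 were lower and 0 higher. Of all 19544 genes, 817 were lower and 1602 higher. For such members that fit rests on P30 values near 0.

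The other genes of the pathway at P30 had 2 of 29 replication genes higher and 0 lower at an unadjusted p under 0.05, led by Gins2 (log2 fold change 1.39, adjusted p = 0.330 by limma) and Mcm10 (1.46, adjusted p = 0.352), both parts of the replication fork. Of 19 other mitotic genes 0 were higher and 2 lower, namely Fbxo5, an inhibitor of the anaphase-promoting complex (-1.21, adjusted p = 0.178, all Kdm6b-cKO libraries below all WT libraries), and Racgap1, a cytokinesis regulator (-0.80, adjusted p = 0.319). In the list of CDK inhibitors and pocket proteins, Pkmyt1, the kinase that holds CDK1 inactive, fell from 9.59 ± 1.92 FPKM in WT to 3.93 ± 1.19 FPKM in Kdm6b-cKO (log2 fold change -1.30, SE 0.23, adjusted p = 0.0298), without overlap. It was the only gene of the 4 lists that was called, and with 1 library left out it stayed past the threshold in 4 of 12 fits (adjusted p 0.0381 to 0.0940). It was lost without WT library 0, 2, 3, 4 or 5 or Kdm6b-cKO library 0, 3 or 5. Cdkn1b, which encodes the CDK inhibitor p27, was next with 0.77 (adjusted p = 0.331). Of 4 other genes of cyclins, CDKs and E2F factors (E2f3 among them) none passed, the smallest p values being those of Ccnd3 (-0.50) and Cdk4 (-0.36).

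At P30, too, markers of cell types varied between the genotypes. Of 6 GABAergic markers tested, 5 were higher in Kdm6b-cKO at an unadjusted p under 0.05 (4.40 to 46.0 FPKM summed in WT and 34.6 to 52.3 in Kdm6b-cKO), led by Dlx1 and Gad1. Of 6 microglial markers 2 were higher (5.97 to 35.9 and 15.0 to 33.5 FPKM), led by Aif1 and Csf1r. Of 7 oligodendrocyte precursor markers 1 was lower (18.5 to 28.8 and 11.6 to 22.7 FPKM), Sox10, which was called (log2 fold change -1.46, adjusted p = 0.0204), and Olig2 followed (-0.59). Of 9 glutamatergic neuron markers 2 were lower (290 to 610 and 241 to 973 FPKM), Slc17a6, which was called (-2.98, adjusted p = 0.0408), and Tbr1. Astrocyte (89.9 to 133 and 86.0 to 137 FPKM), radial glia (76.9 to 120 and 64.3 to 104 FPKM), intermediate progenitor (56.6 to 133 and 81.9 to 134 FPKM, 1 marker at 0 throughout), endothelial and mural (3.69 to 16.4 and 6.42 to 13.0 FPKM) and erythroid markers (3.89 to 18.1 and 2.34 to 14.0 FPKM) had overlapping sums. With 1 library left out, Sox10 was called in 7 of 12 fits (adjusted p 0.0214 to 0.0650, lost without WT library 2, 3, 4 or 5 or Kdm6b-cKO library 0) and Slc17a6 in 2 of 12 (0.0270 to 0.107, called only without Kdm6b-cKO library 2 or 3). The part of these markers in the values of the members was not tested.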

How the data were processed

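RNA of sorted GFP-tagged nuclei was sequenced in 24 libraries. Reads were mapped to mm9 by the authors using HISAT2, and the deposited tables hold FPKM values per library from Cuffdiff. Separate deposited tables of group values, fold changes, test statistics, p and q values were not used. The 44 members, the other gene lists and the tests were chosen with earlier results of these data known. Genes named with full values are 8 representatives (Mki67, Top2a, Cdk1, Ccnb1, Ccnd1, Ccnd2, Mcm2 and Pcna), every member whose groups did not overlap, the 6 tested members with the smallest p at each age, and the 2 leading genes of each other list, of which 1 is not reported here. Further members are named to account for their role.

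WT and Kdm6b-cKO were tested separately at each age by limma 3.58.1 (R 4.3.3; eBayes with trend; two-sided). The scale was log2(FPKM + 0.1), which can understate the change of low genes. An entry of 0 in 1 library can also pull a log2 fold change down, as for Gmnn, Cdt1 and Mcm5 at P1. Genes averaging under 1 FPKM across an age were left out, and p-values were adjusted by Benjamini-Hochberg over the others. Single members were also compared by two-sided exact permutation over 924 regroupings. Effective depth was read from the FPKM steps of 1 read in 6346 genes with 1 annotated transcript, assuming fragments of 200 bases. Reads behind a member were estimated with the annotated transcript length that gave values closest to whole reads, and are rough. Of low values, 69.4% to 77.3% per library lay within 0.1 of a whole read. The scripts were tested on simulated data. Exons of 11 members share bases with another gene (Ccna2, Ccnd1, Ccne2, Cdc20, Cdca8, Kif20a, Mcm7, Nusap1, Top2a, Tyms and Ube2c). The use of strand in counting is not given in the sources used here, so their values are uncertain to that extent.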

Additional observations from a re-analysis of the deposited data

Results flagged for a closer look

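In groups of 6 libraries, a library was marked where its gap to the nearest other one was a larger share of the group's range than Dixon's critical value for 6, which chance gives in about 1 of 20 groups. Of 100 groups of values, 12 were marked. At P1 these were Pcna in Kdm6b-cKO library 2 (176 FPKM, next 90.6), Bub1b in Kdm6b-cKO library 5 (12.0 FPKM, next 4.48) and Mcm4 in WT library 3 (4.47 FPKM, next 7.24, the lowest). At P30 they were Mki67 in WT library 2 (0.569 FPKM), Top2a in WT library 1 (0.231 FPKM), Ccnd2 in Kdm6b-cKO library 0 (31.2 FPKM, next 24.1), Hmgb2 in Kdm6b-cKO library 4 (1.66 FPKM, next 0.548), Birc5 in Kdm6b-cKO library 3 (6.50 FPKM, next 2.45) and Ccnb2 in Kdm6b-cKO library 2 (13.2 FPKM, next 5.44). Summed levels at P30 were marked for mitotic control in Kdm6b-cKO library 2 (38.2 FPKM), for spindle and kinetochore genes in WT library 3 (10.6 FPKM) and for chromatin genes in Kdm6b-cKO library 4 (2.33 FPKM). Kdm6b-cKO libraries 2, 3 and 4 at P30 are the shallowest of that age (1940000 to 2660000 effective reads), and the part of depth in these values was not tested.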

How the results depend on the processing

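No paired analysis was possible because the library numbers 0 to 5 cannot be matched with certainty to the replicate numbers 1 to 6 of the labels. At P1, 10 of 44 members and 1089 of 16250 genes were higher at an unadjusted p under 0.05. With a mean of at least 5 FPKM it was 6 of 28 members and 1046 of 9725 genes. The members became 6 with the batch term (667 genes), 13 with quantile normalization (1063 genes) and 15 with array weights (1472 genes). They became 20 with weights by effective depth (1846 genes). With libraries of at least 1000000 effective reads they became 21 (1930 genes), and their median log2 fold change was 0.80. Weights by effective depth and the choice of deep libraries were both set after the data were seen. The batch make-up of the deep libraries differed between the genotypes, as given above. Calls stayed at 0 except for 4 with depth weights. Under these weights the log2 fold changes that passed an adjusted p under 0.05 were 0.97 for Top2a, 1.59 for Ccne1, 1.35 for Hmgb2, 1.16 for Birc5 and 1.38 for Ube2c. Quantile normalization moved the median of all genes from -0.25 to -0.02, that of the members to 0.52, and Ccnd2 to -0.017. On the scale log2(FPKM + 1) the median of all genes was -0.10 and that of the members 0.37. With no filter on low values they were -0.47 and 0.40. At P30, the 1 member higher became 2 with no filter or with quantile normalization, 0 with a mean of at least 5 FPKM, 4 with array weights and 1 to 2 with a library left out (2 without WT library 1). The P30 median was 0.26 with libraries of at least 5000000 effective reads. Of all genes at P30, 37 were called, 2 to 43 with a library left out (2 without WT library 2, 3 or 5), 530 with array weights, 550 with the batch term and 364 with the deep libraries. Between the ages, array weights gave 1 call among the 22 members, against 204 genes called lower and 279 higher of 12644.

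Signs turned at P30 for Ccnd1 (-0.023 with depth weights, -0.28 with the deep libraries, -0.049 to 0.32 with a library left out, the negative values without WT library 4 or Kdm6b-cKO library 4), Pcna (0.44 with array weights, 0.0010 with depth weights, 0.92 with the deep libraries, -1.03 to 0.28 with a library left out, positive without Kdm6b-cKO library 3) and Ccne1 (-0.15, -0.14, -0.31, and -0.11 to 0.16, negative without WT library 5 or Kdm6b-cKO library 2). The cause was not tested. With a library left out, the exact permutation p at P30 ranged from 0.277 to 0.946 for Mki67, 0.392 to 0.957 for Ccnd1, 0.411 to 0.996 for Mcm2 and 0.416 to 0.790 for Pcna, whose signs turned. That of Pcna at P1 ranged from 0.00649 to 0.0606. The 343000 and 190000 effective reads of the shallowest P1 libraries limit every value of low members there.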

Other observations

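Of the members below the filter at P30, Kif11, the gene of a motor that separates the spindle poles, and Mcm5, a helicase subunit, had the smallest exact permutation p, and they were singled out after their values were seen. Kif11 was at 0, 0.200 and 0.285 FPKM in the lowest, median and highest WT library and at 0.165, 0.321 and 0.775 FPKM in Kdm6b-cKO (unadjusted exact permutation p = 0.039). Mcm5 was at 0.632, 1.06 and 1.49 FPKM in WT and at 0.160, 0.410 and 1.31 FPKM in Kdm6b-cKO (unadjusted exact permutation p = 0.0498). At P1 the log2 fold changes of Kif11 and Mcm5 were 0.00 and -0.37. Neither value was adjusted for the 44 members compared at each age.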
